A study of Mus musculus with 20 samples.

Results

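The genes described here were 38 genes of sterol and fatty acid metabolism in the mouse uterus shortly before implantation. Of these, 23 belong to the sterol pathway governed by SREBP2, 10 to fatty acid synthesis and 5 to the LXR branch, which governs cholesterol export and uptake. They were chosen by name, through an exact match of the gene symbol in the deposited table of 45777 genes, and all 38 were found. The values are TPM, a level scaled to transcript length and to the library total, so that levels of different genes can be compared. All 38 were above 0 TPM in each of the 20 libraries and were tested together with every other gene that met this condition, 18706 genes in all.

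Uterine RNA was sequenced from 20 wild-type B6D2F1 females aged 8 to 12 weeks, mated and collected on the evening of day 3.5 of pregnancy, with 5 mice in each of 4 groups and 1 library per mouse. Control mice were pregnant and received neither agent. IF (implantation failure) mice received RU486, an antagonist of the progesterone and glucocorticoid receptors, at 3 mg/kg under the skin on the morning of day 3.5. PBMC mice received the same RU486 injection after 50000 peripheral blood mononuclear cells had been placed in each uterine horn on day 1.5, and PBMC-hCG mice received cells that had been cultured with 5 IU/mL of human chorionic gonadotropin. In both cases the cells came from non-pregnant mice and were cultured for 24 h before transfer. Mice given culture medium without cells were not analysed here, so the effect of the cells and that of the injection cannot be told apart. One uterine horn per mouse was extracted whole, so that fewer cells of a type and less RNA per cell cannot be told apart either. The libraries summed to between 999989 and 999999 TPM, which follows from the unit, and their sequencing depth is unknown.

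SREBP2 is a membrane-bound transcription factor that the escort protein SCAP carries from the endoplasmic reticulum to the Golgi when membrane cholesterol is low and that INSIG proteins hold back when cholesterol is ample. Once released it raises transcription of nearly every enzyme between acetyl-CoA and cholesterol, while its relative SREBP-1c does the same for fatty acid synthesis. The liver X receptors sense oxysterols and raise cholesterol exporters, and they also drive the gene of SREBP-1c.

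The libraries carried the markers of a whole uterine wall. The markers with the highest means over the 20 mice in the epithelial, stromal and myometrial lists were Krt18, Dcn and Tagln, and all genes of these lists were detected in every library. Control replicate 2 stood apart from the other control mice before any comparison was made. Its 13 adipose markers summed to 790 TPM, whereas the other 4 control mice had 43.1 to 77.9 TPM. Adipoq, the adipocyte hormone adiponectin, was at 42.1 TPM there and at 0 to 4.45 TPM in the other 19 mice, of which 10 were listed at 0, and the most abundant adipose transcripts of that library were Cfd at 284 TPM and Fabp4 at 242 TPM. Its gland markers summed to 23900 TPM against 1250 to 7730 TPM in the other control mice, and its stromal markers to 5430 TPM against 8470 to 9010 TPM. Among the genes described here, control replicate 2 was the lowest control mouse for 16 of the 23 sterol genes and the highest for all 5 LXR genes. The number of the 38 genes that passed and the branch medians are therefore given with and without this library in each comparison with control. Smaller adipose sums above their group were found in IF replicate 5 at 218 TPM and in PBMC replicate 4 at 119 TPM.

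Levels ranged from Scd2, a stearoyl-CoA desaturase, at a mean of 209 TPM over the 20 mice to Hsd17b7, a late enzyme of cholesterol synthesis, at 2 TPM. The next most abundant were Nr1h2 (LXRβ) at 90.7 TPM, Acly (ATP citrate lyase, which makes cytosolic acetyl-CoA) at 90.4 TPM and Fasn (fatty acid synthase) at 59.9 TPM. Among the sterol genes Pmvk, phosphomevalonate kinase, was the most abundant at 57.4 TPM in this mean over all groups. In control alone Ebp led at 44 TPM and Pmvk was at 37.8 TPM. Over all groups the lowest sterol genes after Hsd17b7 were Lss at 4.89, Idi1 at 5.8 and Sqle at 7.69 TPM. In control alone they were Lss at 6.17, Tm7sf2 at 9.37 and Idi1 at 9.55 TPM, and Sqle was at 12.8 TPM. Summed over the 23 sterol genes, the group means were 489 ± 72.7 TPM (SD, n = 5) in control, 476 ± 45.4 in IF, 466 ± 27.1 in PBMC and 423 ± 13.3 in PBMC-hCG. The lipogenic sums were 510 ± 65.3, 492 ± 37.4, 487 ± 15.9 and 511 ± 20.5 TPM in the same order. The LXR genes summed to 191 ± 39.1, 238 ± 40.3, 245 ± 32 and 284 ± 19.3 TPM.

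The groups also differed in how closely their mice resembled each other. The median coefficient of variation over the 23 sterol genes was 19% in control, 16.9% in IF, 10.6% in PBMC and 9.2% in PBMC-hCG, and 15.3% in control without replicate 2. Over the lipogenic genes it was 17.4%, 12.4%, 7.64% and 7.82%, and 10.1% in control without replicate 2. Over the LXR genes it was 31.1%, 21.8%, 12.2% and 10.3%, and 7.9% in control without replicate 2. Control replicate 5 was the highest control mouse for 15 of the 23 sterol genes and IF replicate 5 the highest IF mouse for 10 of them. These are descriptions of 5 mice a group, and the spread was not tested.

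To ask what RU486 did to these genes, IF was compared with control. Insig2, which codes for a protein that retains SCAP and SREBP2 in the endoplasmic reticulum, and Nr1h3, which codes for the receptor LXRα, rose in IF, whereas Acat2, Mvk, Nsdhl, Lss, Dhcr7 and Tm7sf2, all of them enzymes of the sterol branch, fell. In total 12 of the 38 genes passed an adjusted p of 0.05, with 4 higher and 8 lower, where 13.4% of all tested genes rose and 8.53% fell. By branch, 1 sterol gene rose and 6 fell, 1 lipogenic gene rose and 2 fell, and 2 LXR genes rose. The groups did not overlap for 4 of the 38 genes, which were Insig2, Acat2, Nsdhl and Srebf1, against 12.8% of all tested genes. The median log2 fold change was -0.11 over the sterol genes, -0.14 over the lipogenic genes and 0.40 over the LXR genes, beside 0.02 over all tested genes. Without control replicate 2, 21 of the 38 passed, namely 1 sterol gene higher and 10 lower, 2 lipogenic genes higher and 3 lower, and all 5 LXR genes higher, while 26.8% of all tested genes passed. The branch medians were then -0.22, 0.00 and 0.58. With only the IF and control mice in the fit, 6 passed, as did 13.2% of all tested genes, against 21.9% in the fit of all mice.

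**Figure D1:**
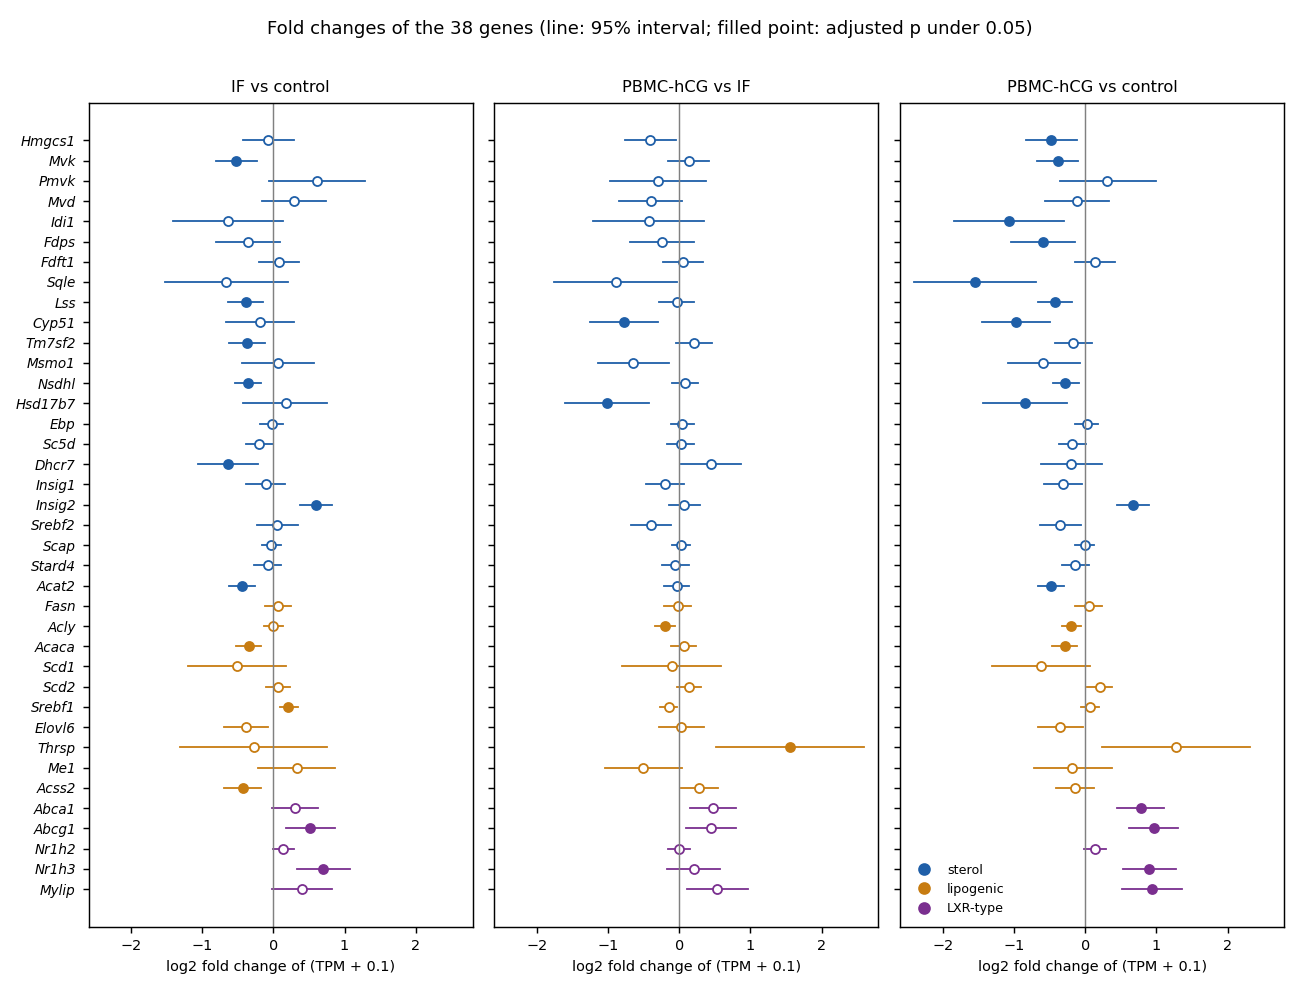
Fold changes of the 38 genes in IF against control, PBMC-hCG against IF and PBMC-hCG against control. The horizontal axis is the log2 fold change of TPM + 0.1, lines are 95% intervals, filled points passed an adjusted p of 0.05 and colours mark the sterol, lipogenic and LXR branches. In the right panel 10 sterol genes lie left of zero and 4 LXR genes lie right of it with filled points.

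Among the proteins that control the sterol branch, the clearest difference was in Insig2 (NCBI gene 72999, chr1:121304353-121332662). It had 24.2, 34.1, 25.6, 26.6 and 31.3 TPM in control replicates 1 to 5, 41.9, 42.3, 52.2, 38.9 and 39.4 TPM in IF, 41.3, 45, 43.7, 44.8 and 39.7 TPM in PBMC and 35.7, 52.4, 48.4, 45.4 and 44.6 TPM in PBMC-hCG. Every mouse given RU486 was above every control mouse. The difference from control was log2 fold change 0.60 ± 0.11 (SE), adjusted p = 0.000474 for IF, log2 fold change 0.60 ± 0.11 (SE), adjusted p = 0.000502 for PBMC and log2 fold change 0.67 ± 0.11 (SE), adjusted p = 0.000133 for PBMC-hCG, and each of the 3 passed in all 20 fits that each left out 1 mouse. Insig1, the other INSIG gene and itself a target of SREBP2, went the other way in 1 comparison. It averaged 22.1 ± 4.2 TPM in control, 20.4 ± 3.45 in IF, 15.8 ± 1.48 in PBMC and 17.6 ± 1.57 in PBMC-hCG, and it fell in PBMC against control (log2 fold change -0.46 ± 0.13 (SE), adjusted p = 0.0164) but missed the threshold without PBMC replicate 3 (adjusted p = 0.0502). Srebf2, the gene of SREBP2, averaged 40.2 ± 8.73 TPM in control, 41.3 ± 6.98 in IF, 34.3 ± 1.67 in PBMC and 31 ± 3.1 in PBMC-hCG. None of its comparisons passed, the nearest being PBMC-hCG against IF (log2 fold change -0.40 ± 0.14 (SE), adjusted p = 0.0535), which passed without control replicate 2 (-0.40, adjusted p = 0.021). Scap was nearly level, with group means of 38.5 to 39.2 TPM and an interval of -0.16 to 0.11 for the log2 fold change of IF against control.

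In the upper part of the pathway, which builds isoprenoid units from acetyl-CoA, Acat2 and Mvk were lower after RU486. Acat2 (NCBI gene 110460, chr17:12943042-12960725), a cytosolic thiolase that joins acetyl-CoA units, had 25.2, 25.7, 25.9, 27 and 35.2 TPM in control replicates 1 to 5, 17.5, 20.2, 22.7, 20.4 and 20.6 TPM in IF, 19.9, 20, 18.8, 18.6 and 18.2 TPM in PBMC and 19.5, 20.5, 19.2, 21.5 and 18.1 TPM in PBMC-hCG. All 15 mice given RU486 lay below all 5 control mice. The fall in IF was log2 fold change -0.44 ± 0.09 (SE), adjusted p = 0.00105, and the level in PBMC-hCG was as low (log2 fold change -0.48 ± 0.09 (SE), adjusted p = 0.000411). Mvk (NCBI gene 17855, chr5:114444264-114460591), mevalonate kinase, had 19.7, 12.6, 19.3, 20.9 and 20.6 TPM in control replicates 1 to 5, 12.6, 13.7, 10.6, 15.5 and 11.8 TPM in IF, 12.7, 15.5, 14.8, 15.7 and 10.6 TPM in PBMC and 14.2, 15.1, 13.5, 12.8 and 14.3 TPM in PBMC-hCG. Control replicate 2 lay inside the range of the treated mice, and the other 4 control mice were above all 15 of them. The fall in IF was log2 fold change -0.52 ± 0.14 (SE), adjusted p = 0.0102, and -0.65, adjusted p = 0.000356 without control replicate 2. Both calls in IF against control held in all 20 fits that left out 1 mouse. Mvk also fell in PBMC and in PBMC-hCG against control, calls that were lost in 7 and in 8 of 20 such fits. With the summed epithelial markers as a covariate these Mvk values were -0.26, adjusted p = 0.144 in PBMC and -0.12, adjusted p = 0.627 in PBMC-hCG.

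Pmvk, the enzyme after Mvk, behaved differently and is described because it has the highest mean of the sterol genes over the 20 mice. It had 43.5, 28.7, 33.1, 60.6 and 22.9 TPM in control replicates 1 to 5, 101, 31.6, 47.5, 34.5 and 92.8 TPM in IF, 63.2, 69.5, 111, 68.6 and 113 TPM in PBMC and 67.8, 38.3, 44.3, 36.5 and 40.8 TPM in PBMC-hCG. The PBMC mice lay above all control mice, whereas the IF mice spread from 31.6 to 101 TPM across the range of both. Its rise in PBMC against control was log2 fold change 1.20 ± 0.32 (SE), adjusted p = 0.012, and IF against control gave log2 fold change 0.61 ± 0.32 (SE), adjusted p = 0.189. Hmgcs1, which makes HMG-CoA, averaged 31.6 ± 10.2 TPM in control and 21.8 ± 1.42 TPM in PBMC-hCG. It fell between these groups (log2 fold change -0.48 ± 0.17 (SE), adjusted p = 0.0406) and not detectably in IF (adjusted p = 0.832). The fall was lost in 8 of 20 fits that left out 1 mouse, the smallest value being -0.31, adjusted p = 0.126 without control replicate 5, and with the summed epithelial markers as a covariate it was -0.10, adjusted p = 0.739.

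Of the enzymes from squalene to cholesterol, Nsdhl, Lss, Dhcr7 and Tm7sf2 were lower in IF than in control. Nsdhl (NCBI gene 18194, chrX:72918521-72958528), a sterol dehydrogenase that helps remove the methyl groups at carbon 4, had 12.5, 11.4, 12, 12.3 and 14.1 TPM in control replicates 1 to 5, 8.42, 9.58, 8.99, 11.3 and 10.3 TPM in IF, 10.1, 8.79, 9.58, 9.83 and 10.7 TPM in PBMC and 9.2, 10.8, 10.4, 9.83 and 10.9 TPM in PBMC-hCG. No treated mouse reached the lowest control mouse. The fall was log2 fold change -0.36 ± 0.09 (SE), adjusted p = 0.00647. Lss (NCBI gene 16987, chr10:76531565-76557139), lanosterol synthase, had 5.99, 5.38, 6.45, 6.06 and 6.97 TPM in control replicates 1 to 5, 3.5, 4.52, 4.76, 5.66 and 5.15 TPM in IF, 4.53, 4.55, 3.68, 4.18 and 3.64 TPM in PBMC and 4.7, 4.79, 4.3, 4.38 and 4.57 TPM in PBMC-hCG. IF replicate 4 overlapped control, and every PBMC and PBMC-hCG mouse was below control. The fall in IF was log2 fold change -0.39 ± 0.12 (SE), adjusted p = 0.0212, and it missed the threshold without control replicate 5 (adjusted p = 0.0532) or without IF replicate 1 (0.0581).

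Dhcr7 (NCBI gene 13360, chr7:143823167-143848410), which reduces the last double bond on the way to cholesterol, had 24.6, 9.37, 24.4, 25.4 and 20.2 TPM in control replicates 1 to 5, 13.9, 12.9, 11, 14.1 and 11.3 TPM in IF, 16.8, 16.1, 14.4, 18.5 and 12.3 TPM in PBMC and 16.8, 15.7, 19.7, 15.2 and 18.5 TPM in PBMC-hCG. Control replicate 2 was the lowest of the 20 mice and the other control mice were above all IF mice. The fall in IF was log2 fold change -0.64 ± 0.20 (SE), adjusted p = 0.0302 with all mice and -0.90, adjusted p = 2.13e-05 without control replicate 2, and it missed the threshold when control replicate 1, 3, 4 or 5 or IF replicate 3 or 5 was left out (adjusted p = 0.0529 to 0.0854). The PBMC-hCG mice, at 17.2 ± 1.93 TPM, were all above the IF mice, at 12.6 ± 1.43 TPM, a difference that did not pass with all mice (log2 fold change 0.44 ± 0.20 (SE), adjusted p = 0.13) and passed without control replicate 2 (0.44, adjusted p = 0.0208). Tm7sf2 (NCBI gene 73166, chr19:6062821-6067850), a sterol reductase, had 10.1, 9.21, 10.4, 8.79 and 8.39 TPM in control replicates 1 to 5, 7.35, 7.33, 7.8, 8.56 and 5.41 TPM in IF, 7.19, 8.82, 7.64, 7.52 and 6.39 TPM in PBMC and 7.28, 9.5, 8.85, 7.2 and 8.97 TPM in PBMC-hCG. IF replicate 4 lay within the control range. Its fall in IF was log2 fold change -0.37 ± 0.12 (SE), adjusted p = 0.0345, and it was lost when any of 5 mice was left out, namely control replicate 1 or 3 or IF replicate 1, 2 or 5 (adjusted p = 0.0512 to 0.101).

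**Figure D2:**
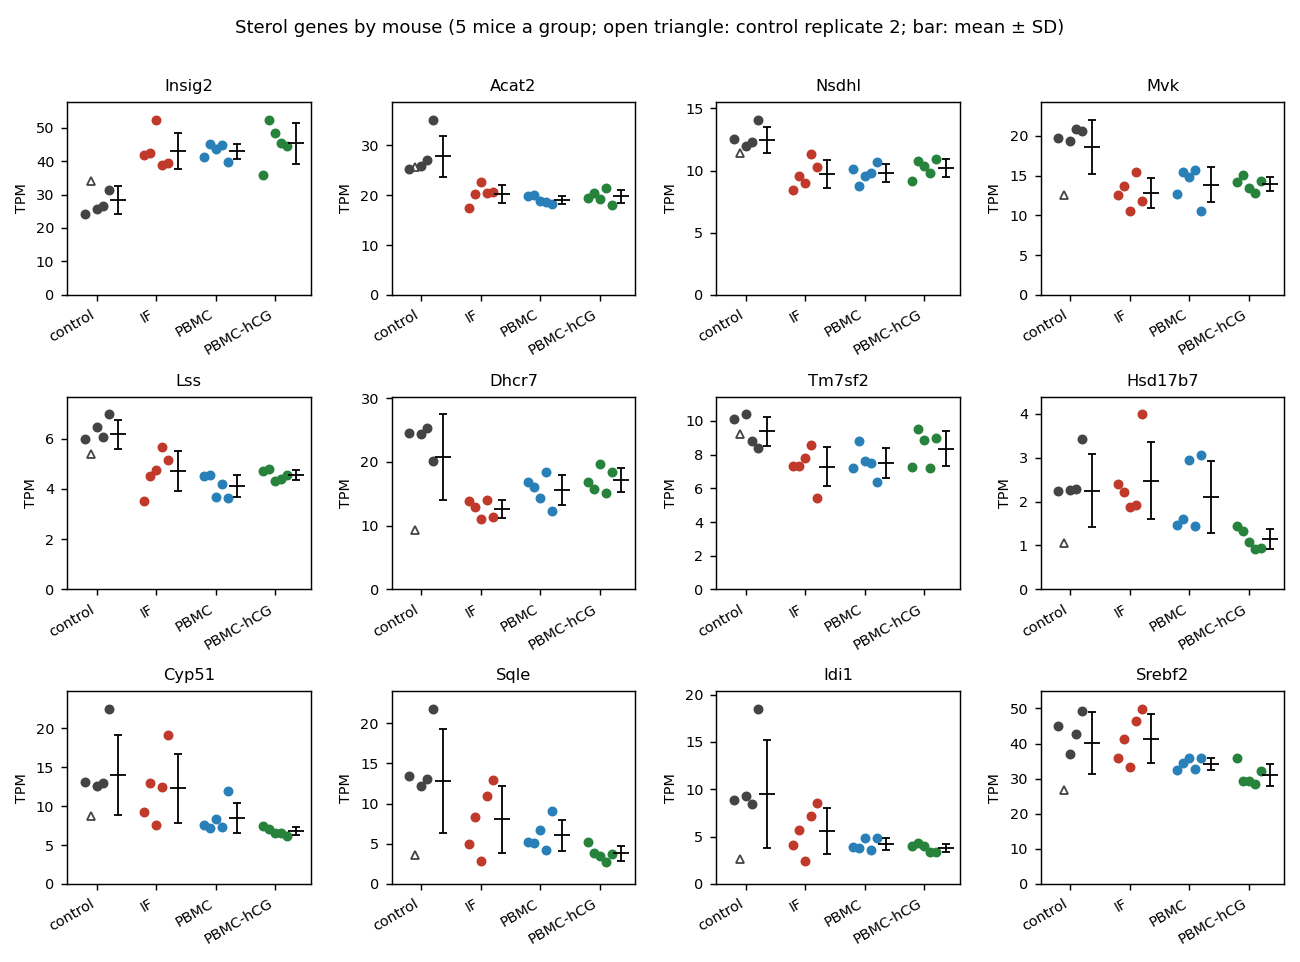
Level in TPM of 12 sterol genes in each of the 20 mice, by group, with each axis starting at 0. Points are mice, the open triangle is control replicate 2, and bars are the group mean ± SD. Insig2 is higher and Acat2 lower in all 15 mice given RU486 than in all control mice, and Sqle, Idi1 and Cyp51 are lowest on average and tightest in PBMC-hCG.

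PBMC-hCG was compared with IF to ask what changed when RU486 was preceded by hCG-treated cells. Of the 38 genes 4 passed, with 1 higher and 3 lower, where 7.61% of all tested genes rose and 5.99% fell. The falls were in Cyp51 and Hsd17b7 of the sterol branch and Acly of the lipogenic branch, the rise was in Thrsp, and no LXR gene passed. The groups did not overlap for 4 genes, Cyp51, Hsd17b7, Dhcr7 and Thrsp, against 7.24% of all tested genes. The medians were -0.06, 0.01 and 0.44 over the sterol, lipogenic and LXR genes, beside 0.05 over all tested genes. Without control replicate 2, which enters this comparison only through the shared estimate of the spread, 11 of the 38 and 21.8% of all tested genes passed. None passed when any one of IF replicates 2, 4 and 5 or PBMC-hCG replicates 2, 3, 4 and 5 was left out. In those fits 0% to 0.182% of all tested genes passed. With the summed epithelial markers as a covariate, none of all 18706 genes passed.

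Hsd17b7 (NCBI gene 15490, chr1:169949535-169969242), a ketoreductase that completes the removal of the carbon 4 methyl groups, had 2.23, 1.05, 2.26, 2.29 and 3.42 TPM in control replicates 1 to 5, 2.41, 2.21, 1.87, 1.92 and 3.99 TPM in IF, 1.47, 1.61, 2.95, 1.45 and 3.07 TPM in PBMC and 1.45, 1.33, 1.08, 0.923 and 0.949 TPM in PBMC-hCG. All PBMC-hCG mice were below all IF mice, with IF replicate 5 far above the rest. The fall was log2 fold change -1.02 ± 0.28 (SE), adjusted p = 0.0343. Cyp51, lanosterol demethylase, was the ninth sterol gene by its smallest p and is named after its values were seen because it passed in 3 comparisons. It had 13.1, 8.67, 12.6, 13 and 22.5 TPM in control replicates 1 to 5, 9.28, 13, 7.56, 12.4 and 19.1 TPM in IF, 7.57, 7.16, 8.39, 7.38 and 11.9 TPM in PBMC and 7.46, 7.11, 6.57, 6.56 and 6.22 TPM in PBMC-hCG. The PBMC-hCG mice lay between 6.22 and 7.46 TPM, below all IF and all control mice. The fall was log2 fold change -0.78 ± 0.23 (SE), adjusted p = 0.0386 against IF and log2 fold change -0.97 ± 0.23 (SE), adjusted p = 0.00382 against control. The third Cyp51 call, in PBMC against control, was lost in 15 of 20 fits that left out 1 mouse (adjusted p of up to 0.132) and under 4 of 11 other settings, and the call in PBMC-hCG against control was lost with the summed epithelial markers as a covariate (-0.54, adjusted p = 0.142). With that covariate the values against IF were -0.72, adjusted p = 0.164 for Hsd17b7 and -0.49, adjusted p = 0.192 for Cyp51.

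The comparison of PBMC-hCG with control joins the effects of RU486 and of the cells, and with all 20 mice it had the most calls, among these genes and among all tested genes. In it 17 of the 38 passed, 5 higher and 12 lower, where 20.2% of all tested genes rose and 11.6% fell. There were 10 falls and 1 rise (Insig2) among the sterol genes, 2 falls among the lipogenic genes, and 4 rises among the LXR genes. The groups did not overlap for 7 of the 38, against 18.3% of all tested genes. The medians were -0.31 over the sterol genes, -0.16 over the lipogenic genes and 0.90 over the LXR genes, beside 0.08 over all tested genes. Without control replicate 2, 24 passed, of which 14 were sterol genes that fell, and 40.2% of all tested genes passed. The branch medians were then -0.46, -0.01 and 1.08. Without control replicate 5, 10 passed, and without PBMC-hCG replicate 4 or 5, 11 passed, beside 25.4%, 25.7% and 27.7% of all tested genes.

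The largest falls in this comparison were in Sqle, Idi1 and Cyp51, which were chosen for description after their values were seen. Sqle, squalene epoxidase, which puts the first oxygen on the sterol skeleton, had 13.4, 3.64, 12.2, 13.1 and 21.8 TPM in control replicates 1 to 5, 4.99, 8.36, 2.88, 11 and 12.9 TPM in IF, 5.28, 5.06, 6.73, 4.17 and 9.13 TPM in PBMC and 5.28, 3.85, 3.5, 2.73 and 3.78 TPM in PBMC-hCG. Control replicate 2 was as low as the PBMC-hCG mice and the other 4 control mice were above all of them. The fall was log2 fold change -1.55 ± 0.41 (SE), adjusted p = 0.00793 with all mice and -1.95, adjusted p = 0.000307 without control replicate 2. Idi1, isopentenyl diphosphate isomerase, had 8.84, 2.62, 9.28, 8.48 and 18.5 TPM in control replicates 1 to 5, 4.11, 5.75, 2.45, 7.23 and 8.6 TPM in IF, 3.93, 3.82, 4.89, 3.63 and 4.84 TPM in PBMC and 4.04, 4.28, 3.98, 3.42 and 3.33 TPM in PBMC-hCG. Its fall was log2 fold change -1.07 ± 0.37 (SE), adjusted p = 0.0332, and it missed the threshold in 7 of 20 fits that left out 1 mouse (adjusted p of up to 0.106, without control replicate 5). Fdps, farnesyl diphosphate synthase, averaged 39.6 ± 14.2 TPM in control and 24.6 ± 2.26 TPM in PBMC-hCG (log2 fold change -0.60 ± 0.21 (SE), adjusted p = 0.0387), and missed it in 8 of 20 such fits (adjusted p of up to 0.122, without the same mouse).

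Summed epithelial markers were highest on average in PBMC-hCG and lowest in control. The 9 epithelial markers, all of them tested and led by Cldn3 in control and by Krt18 in the other groups, summed to 982, 1420, 1100, 1080 and 813 TPM in control replicates 1 to 5, 1150, 1090, 1420, 1110 and 1060 TPM in IF, 1130, 1240, 1130, 1250 and 1420 TPM in PBMC and 1190, 1570, 1460, 1460 and 1260 TPM in PBMC-hCG. The markers did not move as one. In IF against control 5 rose, and Cldn3 fell from 299 ± 66.2 TPM to 156 ± 47.6 TPM. Of all tested genes 13.4% rose and 8.53% fell there. In PBMC-hCG against IF only Krt8 passed, as a rise, where 7.61% of all tested genes rose. There 6 of 9 fold changes were positive and those of Epcam, Cdh1 and Krt7 negative. In a fit with this sum as a covariate, 5 of the 38 genes passed in PBMC-hCG against control, which were Insig2, Acat2, Nr1h3, Abcg1 and Acss2, the last of which did not pass without the covariate. The share of all tested genes that passed was 15.4% with the covariate and 31.8% without it. Sqle then stood at -0.59, adjusted p = 0.304 and Idi1 at -0.17, adjusted p = 0.767. The covariate left the 12 calls of IF against control in place. The epithelial sum was measured after treatment and averaged 1080 ± 223 TPM in control and 1390 ± 159 TPM in PBMC-hCG. Epithelial content and treatment therefore cannot be told apart in that fit. Myometrial markers, led by Tagln, averaged 8400 ± 2060 TPM in control and 5700 ± 464 TPM in PBMC-hCG. Between these groups 5 of 8 fell, where 11.6% of all tested genes fell. Of 8 stromal markers, Dcn rose and Hoxa10 and Hoxa11 fell in IF against control (13.4% and 8.53% of all tested genes). In PBMC-hCG against control 2 rose and 3 fell, beside 20.2% and 11.6% of all tested genes. In PBMC-hCG against IF 2 of the 8 rose and none fell, where 7.61% of all tested genes rose. Of 5 gland markers only Foxa2 passed, falling without overlap in IF and in PBMC-hCG against control. In these comparisons 8.53% and 11.6% of all tested genes fell, and 12.8% and 18.3% did not overlap. Foxa2 averaged 11.8 TPM in control, 6.21 in IF, 8.39 in PBMC and 6.91 in PBMC-hCG. The part of myometrial, stromal or gland content in these results was not tested. The 7 cell cycle markers, led by Pcna, summed to 358, 108, 312, 289 and 536 TPM in control replicates 1 to 5, 225, 313, 157, 272 and 298 TPM in IF, 223, 254, 249, 255 and 256 TPM in PBMC and 219, 230, 254, 160 and 212 TPM in PBMC-hCG. Control replicate 5 was the highest of the 20 mice and control replicate 2 the lowest, as they were among the control mice for most sterol genes, and IF replicate 3 was the lowest IF mouse. None of these 7 passed in IF against control and 2 fell in PBMC-hCG against control, where 11.6% of all tested genes fell. Red cell markers, led by Hba-a1 in control and Hbb-bs in the other groups, averaged 929 ± 318 TPM in control, 1080 ± 452 in IF, 997 ± 483 in PBMC and 521 ± 224 in PBMC-hCG. Of the 5 tested, 2, Hba-a2 and Hbb-bs, fell in PBMC-hCG against IF, where 5.99% of all tested genes fell. Leukocyte markers averaged 67.6 ± 7.93 TPM in control, 82 ± 7.08 in IF, 81.3 ± 8.72 in PBMC and 88.7 ± 8.45 in PBMC-hCG. Of 8 listed and 7 tested, Ptprc rose in IF and in PBMC, and Ptprc, Cd4 and Ncr1 rose in PBMC-hCG against control. Among all tested genes 13.4%, 12.8% and 20.2% rose in these comparisons. Ovary and oviduct markers averaged 27 ± 3.25, 19 ± 6.41, 13.6 ± 3 and 12.6 ± 4.8 TPM in the same order. Of these 9 markers 4 were tested, and Hsd3b1 and Cyp19a1 were listed at 0 in every library. Only Ovgp1, the oviduct glycoprotein, passed, falling in all 3 comparisons with control (21.4 TPM in control and 12.2, 6.65 and 7.43 TPM in the other groups). Among all tested genes 8.53%, 6.7% and 11.6% fell in IF, PBMC and PBMC-hCG against control. The part of cell cycle, red cell, leukocyte or oviduct content in these results was not tested.

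The remaining sterol genes showed smaller or no called changes. Sc5d, sterol C5 desaturase, averaged 10.3 ± 0.945 TPM in control and 7.87 ± 0.767 TPM in PBMC and fell there without overlap (log2 fold change -0.38 ± 0.09 (SE), adjusted p = 0.00628). Msmo1, methylsterol monooxygenase, averaged 12 ± 4.45 TPM in the control group, 12.2 ± 3.12 in the IF group and 7.58 ± 1.01 in PBMC-hCG, and PBMC-hCG against IF gave log2 fold change -0.65 ± 0.24 (SE), adjusted p = 0.0724. Mvd, Fdft1, Ebp and Stard4, which decarboxylate mevalonate diphosphate, form squalene, isomerise the sterol double bond and carry cholesterol between membranes, passed in none of the 6 comparisons. For Ebp the interval of the log2 fold change in IF against control was -0.19 to 0.14. Stard4 in control replicate 2 was 15.7 TPM against 22.5 to 24.1 TPM in the other control mice, and without that library it passed in IF against control (-0.20, adjusted p = 0.0139).

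The sterol genes share letters in their promoters that the choice of genes did not use. RefSeq windows of GRCm38.p6, from 250 bases before to 50 bases after the transcription start, were found for 31 of the 38 genes, 19 sterol, 8 lipogenic and 4 LXR. A CCAAT box (CCAAT, either strand), the site of NF-Y, a known partner of SREBP, was present in 17 of 19 sterol, 6 of 8 lipogenic and 1 of 4 LXR genes, where 41.1% of all 27025 genes in the table and 42.1% of the 13072 tested ones had it. A GC box (GGGCGG, either strand), bound by Sp1, was present in 18, 4 and 2 of them, with 38.2% of all genes and 63.4% of the tested ones. The sterol regulatory element in the form TCACNCCAC was found in Hmgcs1 alone and in 1.44% of all genes, the E-box CACGTG in 5 sterol genes and 1 LXR gene (8.09% of all genes and 10.9% of the tested ones), and a pair of GGTCA repeats 5 bases apart, a strict form of the LXR site, in none (0.0851%). A gene with several starts counted once if any of its windows held the letters, and a match is a description of sequence, not of binding. The 150 bases before the start given in the promoter table are shown for Hmgcs1, which held the sterol regulatory element, for Idi1, Cyp51 and Hsd17b7, which fell in PBMC-hCG, and for Insig2 and Abca1, which rose. Each reads 5′ to 3′, with CCAAT boxes, GC boxes and the sterol regulatory element in capitals on whichever strand they occur. For Hsd17b7, Insig2 and Abca1 that start lies inside the gene as the RefSeq gene table bounds it, so that 37, 73 and 93 of the 150 bases fall within those bounds.
Hmgcs1 (chr13:119690201-119690350, plus strand): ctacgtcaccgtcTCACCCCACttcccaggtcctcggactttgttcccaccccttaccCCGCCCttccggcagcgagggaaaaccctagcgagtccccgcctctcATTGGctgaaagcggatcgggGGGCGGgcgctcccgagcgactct
Idi1 (chr13:8885456-8885605, plus strand): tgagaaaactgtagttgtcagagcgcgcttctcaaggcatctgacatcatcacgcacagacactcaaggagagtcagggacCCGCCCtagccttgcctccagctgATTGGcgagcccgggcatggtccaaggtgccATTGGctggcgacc
Cyp51 (chr5:4104698-4104847, minus strand): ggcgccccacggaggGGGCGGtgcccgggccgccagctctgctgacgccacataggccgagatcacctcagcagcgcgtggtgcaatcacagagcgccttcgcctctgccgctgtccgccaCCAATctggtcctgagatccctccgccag
Hsd17b7 (chr1:169969206-169969355, minus strand): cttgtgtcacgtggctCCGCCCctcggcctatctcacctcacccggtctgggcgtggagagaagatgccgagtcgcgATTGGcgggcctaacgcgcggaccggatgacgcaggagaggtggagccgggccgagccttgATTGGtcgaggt
Insig2 (chr1:121332590-121332739, minus strand): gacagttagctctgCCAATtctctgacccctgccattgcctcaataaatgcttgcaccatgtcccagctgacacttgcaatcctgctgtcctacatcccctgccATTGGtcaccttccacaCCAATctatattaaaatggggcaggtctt
Abca1 (chr4:53159896-53160045, minus strand): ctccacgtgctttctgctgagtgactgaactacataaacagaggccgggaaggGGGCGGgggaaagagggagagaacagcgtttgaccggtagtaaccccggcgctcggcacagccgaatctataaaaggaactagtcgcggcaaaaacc
In Hmgcs1 the sterol regulatory element lies upstream of 2 GC boxes and 1 inverted CCAAT box. Idi1 and Hsd17b7 each carry 2 CCAAT boxes and 1 GC box, and Cyp51 carries 1 of each. The Insig2 window, the first of its 3 starts in the table, has 3 CCAAT boxes and no GC box, and the Abca1 window has no CCAAT box and 1 GC box.

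In the lipogenic branch 2 of 10 genes, Acaca and Acss2, fell in IF against control and 1, Srebf1, rose. Of all tested genes 8.53% fell and 13.4% rose there. Fasn and Acly did not pass in this comparison. Acaca (NCBI gene 107476, chr11:84129635-84401651), acetyl-CoA carboxylase, had 14.9, 12.7, 14.1, 15.3 and 11.5 TPM in control replicates 1 to 5, 10.8, 10.3, 10.2, 11.9 and 10.5 TPM in IF, 12.7, 10.6, 11, 10.6 and 9.75 TPM in PBMC and 11.8, 11.4, 11.2, 10.5 and 10.9 TPM in PBMC-hCG. The IF and control groups overlapped only through control replicate 5, which was below IF replicate 4. The fall in IF was log2 fold change -0.34 ± 0.09 (SE), adjusted p = 0.00672, and against control it was log2 fold change -0.32 ± 0.09 (SE), adjusted p = 0.0117 in PBMC and log2 fold change -0.29 ± 0.09 (SE), adjusted p = 0.015 in PBMC-hCG. Acss2 (NCBI gene 60525, chr2:155518043-155562743), which makes acetyl-CoA from acetate, had 15.9, 18.9, 18.1, 14.6 and 11.2 TPM in control replicates 1 to 5, 12.3, 12.6, 12.8, 10.6 and 9.37 TPM in IF, 11.3, 12.8, 12.3, 12.9 and 11.5 TPM in PBMC and 11.4, 14.4, 15.5, 14.9 and 14 TPM in PBMC-hCG. Control replicate 5 was below 3 of the IF mice. The fall in IF was log2 fold change -0.43 ± 0.13 (SE), adjusted p = 0.0191 and missed the threshold without control replicate 3 (adjusted p = 0.0569) or IF replicate 5 (0.0581).

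Srebf1 (NCBI gene 20787, chr11:60199084-60224186) codes for SREBP-1a and SREBP-1c, which these gene-level values do not separate. It had 36.4, 36.5, 39.8, 36 and 37.7 TPM in control replicates 1 to 5, 40.6, 41.2, 41.6, 49.8 and 43.4 TPM in IF, 44.8, 43.5, 42.4, 38.3 and 41.8 TPM in PBMC and 42, 39, 37.1, 39.2 and 37.6 TPM in PBMC-hCG. All IF mice were above all control mice, by a small margin. The rise was log2 fold change 0.21 ± 0.06 (SE), adjusted p = 0.0137, and it missed the threshold with quantile normalization (0.15, adjusted p = 0.0515) or with only these groups in the fit (0.21, adjusted p = 0.0615). The PBMC mice were higher than control as well (log2 fold change 0.18 ± 0.06 (SE), adjusted p = 0.0428), a call that was lost in 11 of 20 fits that left out 1 mouse and under 6 of 11 other settings (adjusted p of up to 0.163), and PBMC-hCG was near control (log2 fold change 0.07 ± 0.06 (SE), adjusted p = 0.426).

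Thrsp (NCBI gene 21835, chr7:97412933-97417550), the thyroid hormone responsive Spot 14 protein that promotes lipogenesis in fat, liver and mammary gland, had 9.15, 73.5, 12.6, 8.29 and 5.24 TPM in control replicates 1 to 5, 16.6, 7.05, 7.12, 10.8 and 15.4 TPM in IF, 19.8, 20.1, 13.5, 28.4 and 13.6 TPM in PBMC and 26.4, 32.6, 51.6, 23.7 and 29.9 TPM in PBMC-hCG. Each PBMC-hCG mouse was above each IF mouse, and control replicate 2 was the highest of all 20 mice. The rise in PBMC-hCG against IF was log2 fold change 1.56 ± 0.49 (SE), adjusted p = 0.0459. Against control it was log2 fold change 1.27 ± 0.49 (SE), adjusted p = 0.056 with all mice and 1.90, adjusted p = 0.000137 without control replicate 2. With the epithelial covariate the value against control was 0.41, adjusted p = 0.659. The adipose markers summed to 78.2, 58.1, 57.5, 85.6 and 60.5 TPM in PBMC-hCG against 65.1, 63.6, 85.8, 61.3 and 218 TPM in IF, and Adipoq was at 0 to 0.53 TPM in the PBMC-hCG mice. The call against IF was lost under 4 of 11 other settings. These were the epithelial covariate (0.99, adjusted p = 0.232), no filter on low values, no variance trend and the replicate block. It was also lost without any of 14 single mice, with adjusted p of 0.052 to 0.113.

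Acly (NCBI gene 104112, chr11:100476352-100528000) had 99.8, 89.4, 92, 91.4 and 100 TPM in control replicates 1 to 5, 90.4, 96.8, 83.6, 98.3 and 106 TPM in IF, 86.8, 85.1, 93.2, 83.5 and 97.4 TPM in PBMC and 91.8, 81.3, 84.5, 76.3 and 79.1 TPM in PBMC-hCG. PBMC-hCG replicates 1 and 3 overlapped the IF mice and the other 3 PBMC-hCG mice were below all of them. The fall was small, at log2 fold change -0.20 ± 0.07 (SE), adjusted p = 0.0492 against IF and log2 fold change -0.20 ± 0.07 (SE), adjusted p = 0.0286 against control, and the first was lost under 6 of 11 other settings and in 15 of 20 fits that left out 1 mouse. The second was lost in 5 of 20 such fits and with the epithelial covariate (-0.09, adjusted p = 0.423).

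Scd1, the stearoyl-CoA desaturase that adipose tissue expresses strongly, showed how far control replicate 2 could carry a mean. It had 23.9, 110, 24.2, 22.4 and 20.8 TPM in control replicates 1 to 5, 21.4, 17.3, 17.4, 21.5 and 36.6 TPM in IF, 21.7, 20.3, 21.2, 20.1 and 18 TPM in PBMC and 22.6, 19.5, 19, 21.1 and 19.4 TPM in PBMC-hCG. That mouse alone gave a control mean of 40.3 ± 39.1 TPM, and IF against control was log2 fold change -0.51 ± 0.33 (SE), adjusted p = 0.297 with it and -0.06, adjusted p = 0.831 without it. Scd2 is a close paralog, so reads shared between the genes could have been divided either way, and it averaged 197 ± 20.3 TPM in control and 226 ± 13.2 TPM in PBMC-hCG (log2 fold change 0.21 ± 0.08 (SE), adjusted p = 0.0625). Me1, malic enzyme, was highest among control mice in replicate 2 too, at 31.9 TPM, and passed in none of the comparisons with all mice. Elovl6, a fatty acid elongase, was at 8.12 TPM in control replicate 2 and at 13.9 to 16 TPM in the other control mice, and IF against control was log2 fold change -0.38 ± 0.15 (SE), adjusted p = 0.0781 with that mouse and -0.55, adjusted p = 0.0013 without it. Fasn did not pass anywhere, with group means of 57.8 to 61.5 TPM and an interval of -0.12 to 0.25 for the log2 fold change of IF against control.

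**Figure D3:**
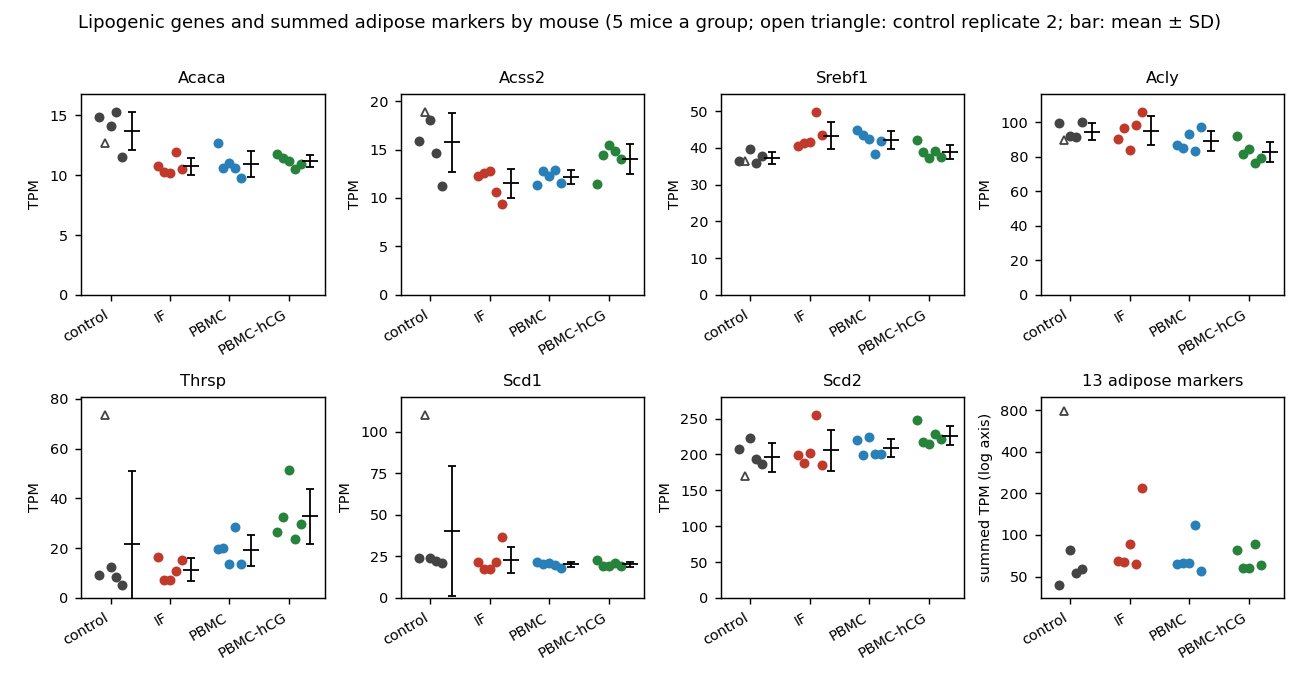
Level in TPM of 7 lipogenic genes and summed TPM of 13 adipose markers in each mouse, by group. Gene axes start at 0, the marker axis is logarithmic, the open triangle is control replicate 2, and bars in the gene panels are the group mean ± SD, cut off at 0. Control replicate 2 is far above the other mice for Scd1 and the adipose markers and above the other control mice for Thrsp, and Thrsp is higher in all PBMC-hCG than in all IF mice.

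In the LXR branch Nr1h3 rose in every group given RU486. In PBMC-hCG against control 4 of the 5 genes rose, where 20.2% of all tested genes rose. Nr1h3 (NCBI gene 22259, chr2:91184061-91202829), the receptor LXRα, had 21.2, 40.1, 19.4, 21.1 and 25.1 TPM in control replicates 1 to 5, 37.9, 42, 53.1, 31.4 and 37.7 TPM in IF, 43.6, 42.5, 37, 45.1 and 28 TPM in PBMC and 39.9, 42.8, 46.5, 51.9 and 48.9 TPM in PBMC-hCG. Control replicate 2 lay inside the treated range, and the other 4 control mice, at up to 25.1 TPM, were below all 15 treated mice. The rise was log2 fold change 0.70 ± 0.18 (SE), adjusted p = 0.0077 in IF, log2 fold change 0.66 ± 0.18 (SE), adjusted p = 0.0123 in PBMC and log2 fold change 0.90 ± 0.18 (SE), adjusted p = 0.000883 in PBMC-hCG. Without control replicate 2 the IF value was 0.88, adjusted p = 0.000213. Nr1h2, the receptor LXRβ, averaged 84.1 ± 9.03 TPM in control and 92.4 ± 5.81 TPM in IF (log2 fold change 0.14 ± 0.07 (SE), adjusted p = 0.19), and it passed without that library (0.20, adjusted p = 0.0289).

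Abcg1 (NCBI gene 11307, chr17:31057694-31117984), which exports cholesterol to lipoprotein particles, had 6.58, 13.6, 9.51, 7.08 and 8.28 TPM in control replicates 1 to 5, 13, 10.6, 17.1, 10 and 13.2 TPM in IF, 12.3, 13.4, 13.5, 14.9 and 12.5 TPM in PBMC and 16.8, 18.7, 16, 19.5 and 14.8 TPM in PBMC-hCG. The PBMC-hCG mice were above all control mice, and control replicate 2 overlapped IF. The rise was log2 fold change 0.52 ± 0.17 (SE), adjusted p = 0.029 in IF, which missed the threshold when control replicate 1, 4 or 5 or IF replicate 1, 3 or 5 was left out (adjusted p = 0.0523 to 0.0836), and log2 fold change 0.96 ± 0.17 (SE), adjusted p = 0.000291 in PBMC-hCG. Abca1, the exporter that loads apolipoprotein A-I, and Mylip, a ubiquitin ligase that removes lipoprotein receptors from the cell surface, are named after their values were seen. Abca1 had 36, 56.8, 36.8, 38.4 and 33.5 TPM in control replicates 1 to 5, 48.5, 42.3, 74.5, 37.7 and 48.2 TPM in IF, 60.4, 56.3, 50.5, 54.1 and 43.4 TPM in PBMC and 62.5, 71.5, 72.1, 74 and 60.5 TPM in PBMC-hCG. All PBMC-hCG mice were above all control and all PBMC mice, and IF replicate 3 was the highest mouse. It rose in PBMC-hCG against control (log2 fold change 0.78 ± 0.16 (SE), adjusted p = 0.00114) and narrowly missed the threshold against IF (log2 fold change 0.47 ± 0.16 (SE), adjusted p = 0.0507). Mylip had 26.7, 50.7, 30.8, 27 and 25.9 TPM in control replicates 1 to 5, 42.4, 38.7, 61.8, 33.8 and 34.7 TPM in IF, 55, 48.1, 43.6, 50.1 and 29.1 TPM in PBMC and 48.5, 65.9, 62.4, 72.8 and 52.1 TPM in PBMC-hCG. Control replicate 2 was above PBMC-hCG replicate 1, and the other control mice were below every PBMC-hCG mouse. Its rise in PBMC-hCG against control was log2 fold change 0.94 ± 0.20 (SE), adjusted p = 0.00195.

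IF replicate 3 was the highest IF mouse for all 5 LXR genes and also had the highest epithelial sum of its group, 1420 TPM. Control replicate 2, the highest control mouse for all 5, had the same epithelial sum. With the epithelial covariate, PBMC-hCG against control was 0.45, adjusted p = 0.0545 for Abca1, 0.56, adjusted p = 0.0842 for Mylip, 0.63, adjusted p = 0.0151 for Abcg1 and 0.69, adjusted p = 0.0324 for Nr1h3. Macrophage markers, led by Lyz2, averaged 1100 ± 58.9 TPM in control, 1160 ± 73.4 in IF, 1190 ± 38.5 in PBMC and 1250 ± 186 in PBMC-hCG. Of these 7 markers, 2 rose in IF against control and 2 in PBMC-hCG against control, beside 13.4% and 20.2% of all tested genes. None passed in PBMC against control or in PBMC-hCG against IF. The part of macrophage content in these results was not tested.

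**Figure D4:**
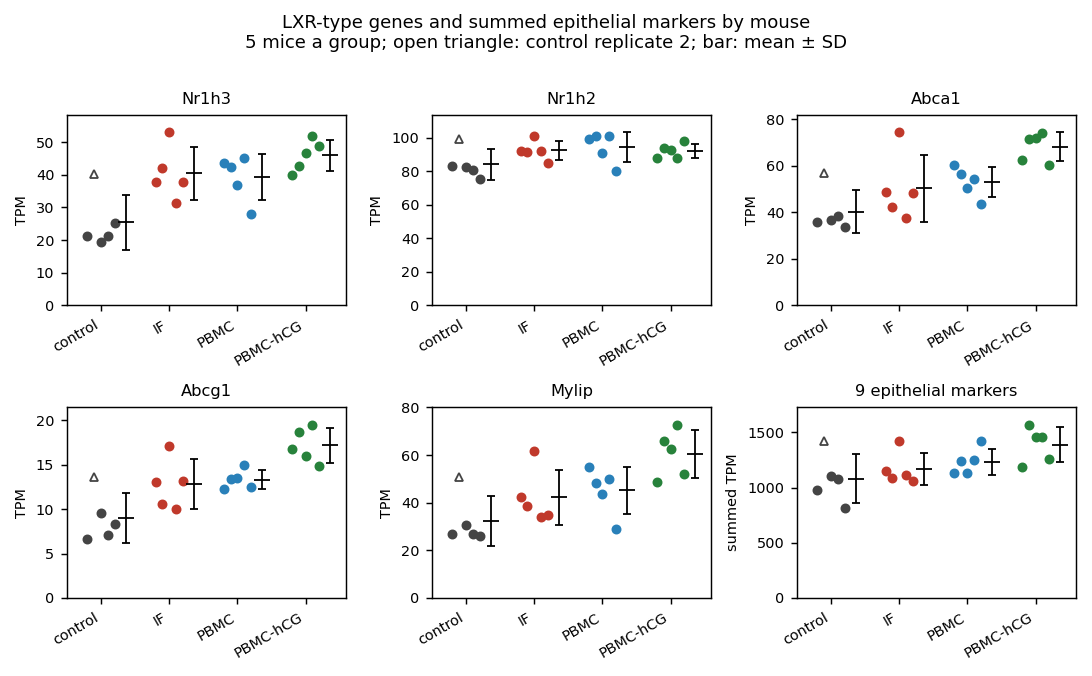
Level in TPM of the 5 LXR genes and summed TPM of 9 epithelial markers in each mouse, by group, with axes starting at 0. The open triangle is control replicate 2 and bars are the group mean ± SD. Control replicate 2 and IF replicate 3 stand above their groups in the gene panels and in the marker panel, and Abca1 and Abcg1 are higher in all PBMC-hCG than in all control mice.

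The PBMC group bears on what cells cultured without hCG added and on what hCG in the culture of the cells added. PBMC against control gave 13 of the 38 genes, 5 higher and 8 lower, where 12.8% of all tested genes rose and 6.7% fell. These were 2 rises and 7 falls among sterol genes, 1 rise and 1 fall among lipogenic genes and 2 rises among LXR genes, with medians of -0.32, -0.06 and 0.50 beside 0.05 over all tested genes. Without control replicate 2, 24 passed, and 24.7% of all tested genes, and the branch medians were -0.40, -0.04 and 0.68. PBMC against IF gave none of the 38 at an adjusted p of 0.05 by limma, as it gave 0% of all tested genes. At an unadjusted p of 0.05 there were 2, Cyp51 and Insig1, both lower, against 6.79% of all tested genes. PBMC-hCG against PBMC also gave none, against 0.0107% of all tested genes, and 6 at an unadjusted p of 0.05, against 16.2%. Those 6 were Sc5d, Abca1, Abcg1 and Mylip, which were higher, and Pmvk and Hsd17b7, which were lower. For Abca1, whose PBMC-hCG and PBMC mice did not overlap, the value was log2 fold change 0.37 ± 0.16 (SE), adjusted p = 0.289. The 3 comparisons with control share the same control mice and cannot be read as independent of each other.

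Further genes of these pathways, from lists written alongside the 38, were counted in the same way. Their fold changes without control replicate 2 or with the epithelial covariate are not given here. Of those named, Osbp, Npc2, Aacs, Elovl1, Pgd and Lpcat3 were added after their values were seen, to complete a count. Of 11 other sterol genes, 3 rose and 2 fell in IF against control, where 13.4% of all tested genes rose and 8.53% fell. Tmem97, the sigma-2 receptor that binds sterols and is induced when they are scarce, averaged 28.1 ± 12.7 TPM in control, 13.2 ± 4.01 in IF, 9.82 ± 1.61 in PBMC and 8.16 ± 2.17 in PBMC-hCG, and it fell in all 3 comparisons with control, to log2 fold change -1.66 ± 0.30 (SE), adjusted p = 0.000493 in PBMC-hCG. Control replicate 2 had 10.1 TPM, inside the PBMC-hCG range, and the other control mice had at least 25.5 TPM. Erg28, a scaffold of the enzymes that remove the carbon 4 methyl groups, fell in IF (log2 fold change -0.28 ± 0.07 (SE), adjusted p = 0.00626). Among the rises were Ggps1, which makes geranylgeranyl diphosphate (log2 fold change 0.33 ± 0.06 (SE), adjusted p = 0.00101) and Osbp, an oxysterol binding protein (log2 fold change 0.23 ± 0.07 (SE), adjusted p = 0.0165). In PBMC-hCG against IF, Npc2, which moves cholesterol out of lysosomes, was the 1 of 11 that passed (log2 fold change 0.25 ± 0.08 (SE), adjusted p = 0.0493), where 7.61% of all tested genes rose.

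Of 18 other lipogenic genes, 1 rose in IF against control (13.4% of all tested genes), Dgat1, which catalyses the last step of triglyceride synthesis. It averaged 18 ± 1.57 TPM in control, 25.1 ± 2.75 in IF, 24.7 ± 2.58 in PBMC and 19.6 ± 2.35 in PBMC-hCG. It rose in IF (log2 fold change 0.47 ± 0.10 (SE), adjusted p = 0.00154) and fell in PBMC-hCG against IF (log2 fold change -0.35 ± 0.10 (SE), adjusted p = 0.0319). The other 3 of 18 that passed in PBMC-hCG against IF, where 5.99% of all tested genes fell, were also lower, Aacs, which activates acetoacetate (log2 fold change -0.63 ± 0.16 (SE), adjusted p = 0.0287), Elovl1, an elongase (log2 fold change -0.37 ± 0.10 (SE), adjusted p = 0.0344), and Pgd, which supplies NADPH (log2 fold change -0.21 ± 0.06 (SE), adjusted p = 0.0402). Without IF replicate 5 or without PBMC-hCG replicate 3, no tested gene passed in this comparison. The calls of Dgat1, Aacs, Elovl1, Pgd, Npc2 and Rxra against IF were therefore lost in those fits. In PBMC-hCG against control, Gpam, which starts glycerolipid synthesis (log2 fold change 0.64 ± 0.16 (SE), adjusted p = 0.00542), Lpin1, a phosphatidate phosphatase (log2 fold change 0.75 ± 0.21 (SE), adjusted p = 0.0109), and Acacb, the mitochondrial carboxylase (log2 fold change 0.82 ± 0.26 (SE), adjusted p = 0.0209), rose, and Aacs fell, beside 20.2% and 11.6% of all tested genes. For Gpam, Lpin1 and Acacb, control replicate 2 had 61.5, 8.87 and 7.31 TPM, inside the PBMC-hCG range. The other control mice had at most 36.1, 5.91 and 3.61 TPM.

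Of 8 other genes tied to LXR, 1 rose in IF against control, 2 rose in PBMC and 5 rose in PBMC-hCG, and none fell. The shares of all tested genes that rose were 13.4%, 12.8% and 20.2%. Abca7, a lipid transporter, rose in all 3 groups, by log2 fold change 0.63 ± 0.13 (SE), adjusted p = 0.0019 in IF. Rxra, the partner receptor with which LXR binds DNA, rose in PBMC (log2 fold change 0.15 ± 0.05 (SE), adjusted p = 0.0373) and PBMC-hCG (log2 fold change 0.25 ± 0.05 (SE), adjusted p = 0.000861) against control and was the 1 of 8 that passed against IF (log2 fold change 0.21 ± 0.05 (SE), adjusted p = 0.0287). Pltp, the phospholipid transfer protein, averaged 233 ± 49.9 TPM in control and 337 ± 48.6 TPM in PBMC-hCG and rose between them (log2 fold change 0.54 ± 0.14 (SE), adjusted p = 0.00814). Its level in control replicate 2 was 320 TPM, inside the PBMC-hCG range, and at most 224 TPM in the other control mice. The other 2 rises in PBMC-hCG against control were in Abca3, a lipid transporter (log2 fold change 0.38 ± 0.12 (SE), adjusted p = 0.0228), and Lpcat3, which remodels phospholipids (log2 fold change 0.28 ± 0.09 (SE), adjusted p = 0.0296).

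Some of these genes share exonic sequence with a neighbour. In the GRCm38 annotation, exons of 14 of the 38 overlap exons of another gene. On the same strand these were Fdps with Gm43738, Tm7sf2 with Vps51, Scd2 and Srebf1 each with a microRNA, and Nr1h3 with Gm13783, so that their reads could have been divided. On the opposite strand they included Cyp51 with Akap9, Fdft1 with Ctsb, Srebf1 with Rai1, and Acss2 with Gss and Ggt7, where the counting would have to use strand to tell them apart, and that setting is not given in the sources used here.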

How the data were processed

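Uterine polyA RNA of 20 mice was sequenced from stranded libraries. According to the study's methods and the submitters' processing notes, the authors trimmed reads with Trimmomatic, mapped them to mm10 with HISAT2 and assembled transcripts with StringTie, with versions not given in the sources used here. The deposited values are TPM per gene and library. The authors tested counts with the exact test of edgeR, which TPM do not allow. Here TPM were transformed to log2(TPM + 0.1), and limma 3.58.1 in R 4.3.3 was fitted over the 4 groups, two-sided and with a variance trend, to those 18706 genes that had a value above 0 in each of the 20 mice. Fold changes are on this scale, which understates those of low genes. Within each of 6 comparisons the Benjamini-Hochberg adjustment covered all tested genes, and a gene passed at an adjusted p under 0.05. P-values measure the spread between these mice.

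The 38 genes and all lists were chosen with earlier results of these data known. Given in full were those passing in IF against control or PBMC-hCG against IF, at most 8 sterol, 6 lipogenic and 3 LXR genes in order of adjusted p, with the regulators by group means in any case, and of the further pathway genes those passing, at most 4 per list. Other choices are named as made after the values were seen. The values of 1 further pathway gene that is included in the counts are not reported here. Lists were described by counts and medians and not tested.

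Alternatives were the pseudocount (0.01 or 1), the filter, the scaling, the variance trend, the samples fitted, a replicate block, adipose or epithelial marker sums as a covariate, a rule of at least a 2-fold change with an unadjusted p under 0.05, and leaving out each mouse. The fit was also tested on simulated data, and no result of that test is used here. Gene positions were joined by NCBI gene identifier, promoter windows are from RefSeq, and overlaps from GENCODE, all on GRCm38. The R package data.table (version 1.17.8) and pandas 2.3.3 read the files, and matplotlib 3.10.9 on Python 3.11.15 drew the figures.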

Additional observations from a re-analysis of the deposited data

Results flagged for a closer look

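Within each group of 5 mice, the highest or lowest mouse was looked for that lay further from its neighbour, relative to the range of the group, than Dixon's 95% limit. Of 188 sets of values for a gene or marker sum in a group, 28 had such a mouse. A rate of about 1 in 20 would hold for independent sets of normally distributed values. These sets are untransformed TPM from the same mice, so the count cannot be set against that rate. Of 152 sets for the 38 genes there were 21, and 8 of these came from control replicate 2.

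Control replicate 2 was low for Mvk (12.6 TPM), Stard4 (15.7 TPM) and Elovl6 (8.12 TPM). It was high for Scd1 (110 TPM), Thrsp (73.5 TPM), Abca1 (56.8 TPM), Nr1h3 (40.1 TPM) and Mylip (50.7 TPM). Its summed markers were high for adipose at 790 TPM and for gland at 23900 TPM, and low for stroma at 5430 TPM. Whether the adipose or gland content of that library accounts for its sterol and LXR levels was not tested. Control replicate 5 was high for Acat2 at 35.2 TPM.

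In IF, replicate 5 was high for Hsd17b7 (3.99 TPM), Scd1 (36.6 TPM) and the adipose markers (218 TPM). IF replicate 3 was high for Ebp (48.2 TPM), Insig2 (52.2 TPM) and the epithelial markers (1420 TPM). IF replicate 1 was low for Fdft1 at 12 TPM, and IF replicate 4 was high for Scd2 at 255 TPM.

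In PBMC, replicate 5 was high for Hmgcs1 (29.2 TPM), Cyp51 (11.9 TPM) and Me1 (19.5 TPM). PBMC replicate 3 was low for Insig1 at 13.3 TPM, and PBMC replicate 4 was high for the adipose markers at 119 TPM. In PBMC-hCG, replicate 1 was high for Pmvk at 67.8 TPM, and replicate 4 was low for Stard4 at 17.9 TPM and high for the gland markers at 10200 TPM.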

How the results depend on the processing

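No call of any of the 38 genes changed sign under any alternative. Of the 46 calls, 46 were kept with a pseudocount of 1, 45 with 0.01 or with median ratio scaling, 43 with quantile normalization, 34 with no filter on low values, 31 with only the groups compared in the fit and 26 with the epithelial covariate. In IF against control, 12 of the 38 genes passed (21.9% of all tested genes), 6 with only these groups in the fit (13.2%) and 0 under the 2-fold rule (4.03%). In PBMC-hCG against IF, 4 passed (13.6%), and 0 with no filter on low values (2.65%), 2 without the variance trend (11%), 7 with only these groups (13.2%), 9 with the adipose covariate (22.1%), 0 with the epithelial covariate (0%) and 2 under the 2-fold rule (2.31%). In PBMC against control, 13 passed (19.5%), and 8 with only these groups (13.5%), 23 with the adipose covariate (23.3%) and 1 under the 2-fold rule (3.34%). In PBMC-hCG against control, 17 passed (31.8%), and 5 with the epithelial covariate (15.4%) and 3 under the 2-fold rule (4.74%). Of the 46 calls, 41 were changes below 2-fold, and for the other alternatives the cause was not tested.

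Leaving out 1 mouse gave 8 to 21 genes in IF against control, beside 17.8% to 26.8% of all tested genes. The extremes were without IF replicate 5 and control replicate 2. It gave 0 to 11 in PBMC-hCG against IF, beside 0% to 27.1% of all tested genes. There 7 of 20 mice took the count to 0, and leaving out control replicate 2 gave the 11, with 21.8% of all tested genes. In PBMC against control the range was 9 to 24, beside 15.8% to 24.7% of all tested genes. For PBMC-hCG against control it was 10 to 24, beside 25.4% to 40.2%. The 24 in both came without control replicate 2. Calls kept without any 1 of the 20 mice were 7 of 12, 0 of 4, 9 of 13 and 10 of 17 in these 4 comparisons. PBMC against IF and PBMC-hCG against PBMC gave 0 of the 38 under all of these alternatives. The highest shares of all tested genes there were 0.438% and 0.893%, both under the 2-fold rule. With the replicate number as a block, 12 genes passed in IF against control (22.2% of all tested genes) and 6 in PBMC-hCG against IF (17.2%). In PBMC against control 12 passed (19.4%) and in PBMC-hCG against control 20 (32.5%), and 42 of the 46 calls were kept. What the replicate numbers stand for is not given in the sources used here. The correlation between same-numbered mice was -0.247 to 0.457 over 30 pairs, of which 8 were over 0.1. Of 20 mice, 2 correlated best with their own number. These values cannot settle whether the numbers mark a shared litter or day. The sequencing depth is unknown, so counting error could not be given for low genes such as Hsd17b7.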
